A study of Rattus norvegicus with 32 samples.

Results

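The 10 genes described here encode the EGF receptor family and the proteins that feed it: the ligands Hbegf, Areg, Ereg, Btc, Tgfa and Nrg1, the receptors Egfr, Erbb2 and Erbb3, and the sheddase Adam17. They were taken as every probe for a transcript whose gene name is one of these 10 names, which gave 13 of the 30367 probes and 10 of the 26583 gene names on the array. The cells were C6, a rat glioma cell line kept as a single line in medium with 10% fetal bovine serum. The cells of every group, controls included, were thus grown with the growth factors of serum. The study's methods do not state whether serum was present during the treatments. The Control group received no agent, the Ang II group received angiotensin II at 100 nM, and the groups Ang II+Los and Ang II+PD123319 received Losartan, an antagonist of the AT1 receptor, or PD123319, an antagonist of the AT2 receptor, at 10 µM for 30 minutes before the same Ang II. No group received an antagonist alone. For each of the 4 groups there were 4 replicates per time, 3 h or 6 h of treatment, and the 32 RNA samples were each hybridized with 1 dye to an Agilent rat array. The labels do not say whether replicates were separate cultures, so the p-values below measure the spread between these samples, which may be technical.

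As background, the ligands of this family are made as membrane proteins, and metalloproteases, Adam17 first among them, cut them free. A freed ligand binds Egfr, Erbb3 or Erbb4, the bound receptors pair with one another or with Erbb2, which has no ligand of its own, and the pair signals through Ras and the MAP kinases, PI3 kinase and phospholipase C gamma. Receptors coupled to G proteins can enter the same route: Ang II acting on AT1 is known in several cell types to release Hbegf by shedding and so to activate Egfr, which is called transactivation. Shedding and receptor activation are events of proteins, and the arrays measured RNA only. The comparison of Ang II with Control, the Ang II contrast, asks which of these transcripts moved with Ang II, and those of Ang II+Los and Ang II+PD123319 with Ang II, the Losartan contrast and the PD123319 contrast, ask what moved when AT1 or AT2 was blocked during the Ang II treatment.

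What the array could see of each gene was set by its probe, a DNA strand of 60 bases. The first 30 bases of 7 probes are given, 5′ to 3′, because the results turn on them: the only probe of Hbegf, the only probe of Egfr, and the probes of Tgfa and Erbb2, which did not give the same reading. Positions are on rn4, per the file headers. They run chr18:29143627-29143686 for Hbegf (minus strand), chr14:97788051-97788110 for Egfr, chr4:120437505-120437564 and chr4:120432206-120432265 for the first and second Tgfa probe, and chr10:87238370-87238429, chr10:87242482-87242541 and chr10:87242734-87242793 for the first, the second and the third Erbb2 probe, all on the plus strand. All letters are in lower case since no motif is marked.
Hbegf: atttattgtctgtctacatttcagaagatg
Egfr: tggtcttcgaactgtgaagattccactgaa
Tgfa, the first probe: attataaggaccctatgctgtttttagaac
Tgfa, the second probe: tgccctggtggtagtctccattgtggccct
Erbb2, the first probe: tggtcgttggaatcctaatcaaacgaagga
Erbb2, the second probe: gcactttcatccagaccagtctttgtacag
Erbb2, the third probe: ttccaaaagtttgagatggtttggctttgg

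Egfr itself, the receptor that transactivation is named for, was not well above background on any of the 32 arrays. Its background-subtracted signal lay between -7.15 and 3.41 at 3 h and between 1.06 and 3.03 at 6 h, where the median of all spots was 49.7 and 70.1. Ereg and Btc, which are ligands of Egfr and, like Hbegf, also of Erbb4, were not well above background on any array either. These 3 genes have a bound only, through 1 probe each, and no level or fold change is given for them. By contrast Hbegf, Areg, both probes of Tgfa, Erbb3, Adam17 and the second and the third probe of Erbb2 were well above background on all 32 arrays. The first Erbb2 probe was so on 1 of 16 arrays at 3 h and 5 of 16 at 6 h, with signals of -0.0584 to 17.9, while the second probe, on the same gene, gave 376 at its lowest. Nrg1, the neuregulin that binds Erbb3 and Erbb4, was well above background on 1 Control, 3 Ang II, 2 Ang II+Los and 1 Ang II+PD123319 array at 3 h and on all 16 arrays at 6 h. The arrays of 3 h and 6 h were extracted under different protocols, so detection is not compared between the times. The tests therefore held 6 of the 10 genes at 3 h and 7 at 6 h, since the fits took a probe only if some group had it well above background on 4 of its 4 arrays.

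**Figure D1:**
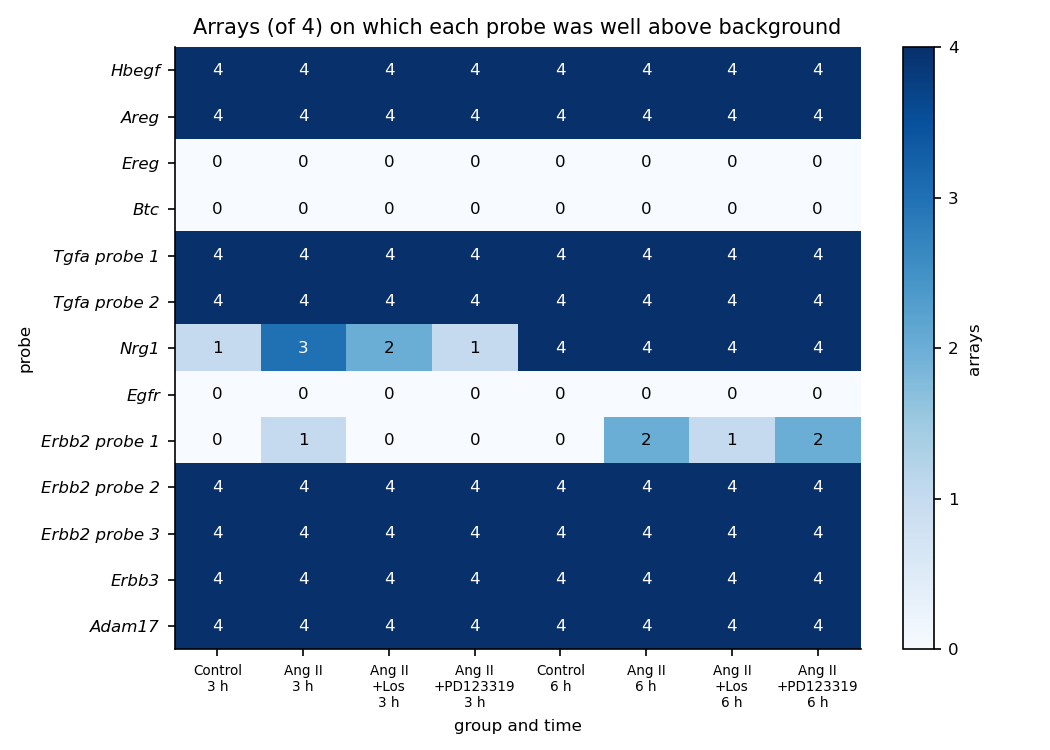
Number of arrays, of 4, on which each of the 13 probes (rows) was well above background, by group and time (columns). Egfr, Ereg and Btc are at 0 in all 8 columns, Nrg1 reaches 4 in every group at 6 h only, and the first of the 3 Erbb2 probes never reaches 4.

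The receptors of Ang II showed the same pattern as Egfr. Agtr1a and Agtr1b, which encode the rat AT1 receptors, and Agtr2, which encodes AT2, were not well above background on any array at either time, so that these probes gave no level of the targets of Ang II, Losartan and PD123319. Of the remaining genes of the family, Erbb4, Nrg3 and Nrg4 were not above background on any array, Nrg2 on 1 array at 3 h and 4 at 6 h by its better probe, and Epgn was not found on the array under that name. Egf was the 1 gene tested of these 6, and it passed no limit in any comparison. As markers of the cells, S100b, Vim, Nes, Cnp, Ncam1 and Cd44 were well above background on every array, while Gfap, the astrocyte filament, was so on 0 of 16 arrays at 3 h and 2 of 16 at 6 h. Of neuron markers Snap25, Tubb3 and Map2 were detected on every array and Syt1 on none. Of microglia and macrophage markers Aif1, Cd68 and Itgam were detected on every array by the better of their probes, Csf1r on 12 of 16 at 3 h and 16 of 16 at 6 h, and Ptprc on none. Of endothelial markers Vwf was detected on every array by its best probe, Cdh5 on 12 of 16 at 3 h and 16 of 16 at 6 h, Kdr on 6 and 11, and Pecam1 and Tek on none. Some markers moved past the limits given below: Cnp by 0.43 and, lower, Ncam1 by -0.48 and Tubb3 by -0.72 in the Ang II contrast at 6 h, Ncam1 by -0.35 there at 3 h, Cnp by -1.14 and Ncam1 by 0.46 in the Losartan contrast at 3 h (-0.50 and 0.45 without the array of Ang II+Los replicate 2, where Ncam1 still passed and Cnp did not), and S100b by 0.28 and the microglial gene Aif1 by 0.39 in the PD123319 contrast at 6 h, all on the log2 scale. Their part in the results was not tested.

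Treatments were compared on log2 signal within the 16 arrays of a time, with the replicate number as a block, because the 4 arrays of a replicate number shared a slide and deviated together. Position on the slide and treatment cannot be told apart, since Control was always at position 1 and Ang II, Ang II+Los and Ang II+PD123319 at positions 2, 3 and 4. The arrays of 3 h and 6 h were on different slides and in different scans. Per the file headers, their extraction protocols were GE1-v1_95_Feb07 at 3 h and GE1-v5_95_Feb07 at 6 h. Differences between the times below cannot be told apart from these. A gene is said to pass when its unadjusted limma p was under 0.05 and its fold change above 1.2 or below 0.8. These are loose limits: 0 genes on the array had a Benjamini-Hochberg adjusted p under 0.05 in any of the 6 comparisons by this limma fit or by a paired or an unpaired test per gene, and 328 to 3533 had an unadjusted p under 0.05 by limma. One array stood apart. Ang II+Los replicate 2 at 3 h had a median correlation of 0.944 with the other arrays of its time, against 0.957 to 0.980 for the rest. Without that array, 188 genes passed in the Losartan contrast at 3 h in place of 1374, so the values of the genes past the limits there are given with and without it.

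Hbegf, the heparin-binding ligand of Egfr and Erbb4, was the gene of the family that passed in the most comparisons. At 3 h its log2 signal on replicates 1 to 4 was 8.48, 7.60, 6.41 and 6.32 in Control, and 8.54, 7.88, 6.24 and 6.41 with Ang II. With Losartan added it was 8.66, 6.98, 5.87 and 5.99, and with PD123319 added it was 8.44, 6.79, 5.74 and 5.74. The slide set most of this spread, with replicates 1 and 2, which were scanned together, above replicates 3 and 4 in every group, and the ranges of all 4 groups overlapped. Within a slide the order was steadier: the Ang II+PD123319 array was the lowest of its 4 on every slide. At 6 h, Control gave 8.61, 7.44, 9.33 and 7.47 and Ang II gave 9.03, 8.45, 9.39 and 7.78. Ang II+Los gave 8.97, 8.25, 9.46 and 7.67, and Ang II+PD123319 gave 8.69, 8.04, 9.16 and 7.05. Again the groups overlapped. On each of the 4 slides of 6 h the Ang II array was above the Control array and the Ang II+PD123319 array below the Ang II array.

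**Figure D2:**
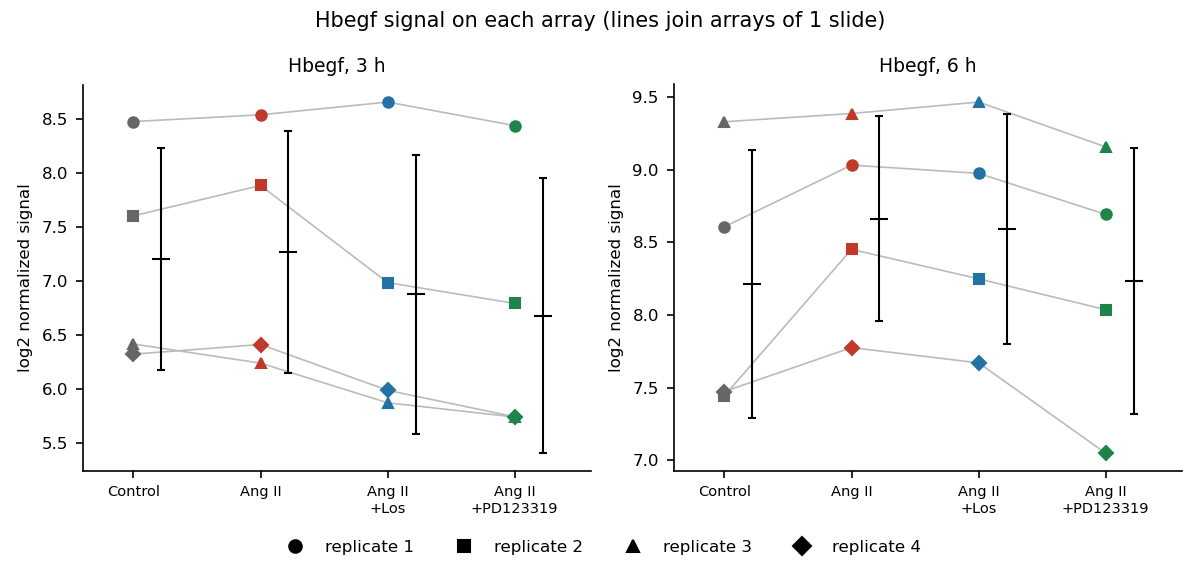
Log2 normalized signal of Hbegf (y axis) on each array by group (x axis), at 3 h and 6 h, where lines join the 4 arrays of a slide and the bars are the mean and SD of 4 arrays. At 3 h the lines of replicates 1 and 2 lie above those of replicates 3 and 4, some lines cross, and on each of the 8 slides the Ang II+PD123319 point lies below the Ang II point.

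In the Ang II contrast, Hbegf differed by a log2 fold change of 0.06 (SE 0.16, n = 4 and 4, 95% interval -0.28 to 0.41) at 3 h and did not pass, with slide differences of 0.06, 0.28, -0.18 and 0.09. At 6 h it was 0.45 higher (SE 0.14, 1.36-fold, interval 0.14 to 0.75, limma adjusted p = 0.124) and passed, being higher on 4 of 4 slides by 0.42, 1.01, 0.06 and 0.30. Most of the size came from replicate 2: without it the difference was 0.26 and under the fold limit. The difference between the times was 0.38 (SE 0.21, limma adjusted p = 0.697), so a change at 6 h and not at 3 h is not shown. In the PD123319 contrast, Hbegf was lower by a log2 fold change of -0.59 (SE 0.16, 0.664-fold, interval -0.94 to -0.25, limma adjusted p = 1.00) at 3 h, with slide differences of -0.10, -1.09, -0.50 and -0.67. It was lower by -0.43 (SE 0.14, 0.744-fold, interval -0.73 to -0.12, limma adjusted p = 0.617) at 6 h, with slide differences of -0.34, -0.41, -0.23 and -0.73. Hbegf passed at 3 h whichever slide was left out, while leaving out replicate 4 took the 6 h value to -0.33, short of the limits. Within the first and the second scan of 3 h the means were -0.60 and -0.59, and at 6 h -0.33 and -0.73. In the Losartan contrast at 3 h Hbegf was lower by -0.39 (SE 0.16, limma adjusted p = 0.427), on 3 of 4 slides, and passed. It did not pass without the array that stood apart (-0.30), nor without replicate 2 (-0.22), replicate 3 (-0.40) or replicate 4 (-0.38), nor in a fit to the 8 arrays compared. At 6 h with Losartan it differed by -0.07 (SE 0.14, interval -0.37 to 0.23). The 3 comparisons of a time share the Ang II arrays and are not independent of one another.

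Areg, amphiregulin, a ligand of Egfr printed 10 times on the array, moved in 1 comparison. At 3 h its log2 signal was 7.42, 7.27, 6.74 and 7.47 in Control and 7.39, 7.32, 6.55 and 7.44 with Ang II. It was 7.81, 8.36, 6.86 and 7.63 with Losartan and Ang II, and 7.31, 6.83, 6.32 and 7.23 with PD123319 and Ang II. Losartan arrays were the highest and PD123319 arrays the lowest of the 4 on every slide, although the groups overlapped through replicate 3, which was low throughout. Areg passed in the Losartan contrast at 3 h, the log2 fold change being 0.49 (SE 0.16, 1.41-fold, interval 0.14 to 0.85, limma adjusted p = 0.427), higher on 4 of 4 slides by 0.42, 1.04, 0.32 and 0.19. Without the array that stood apart it was 0.27 (SE 0.10) and still passed. In the PD123319 contrast at 3 h Areg differed by -0.25 (SE 0.16, interval -0.60 to 0.11) and did not pass, and in the Ang II contrast by -0.05 (SE 0.16). At 6 h all 16 values lay between 7.29 and 8.05, and the 3 log2 fold changes were 0.00, -0.04 and -0.02, each with an SE of 0.08. The Losartan difference at 6 h was lower than that at 3 h by -0.53 (SE 0.18, limma adjusted p = 0.704).

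**Figure D3:**
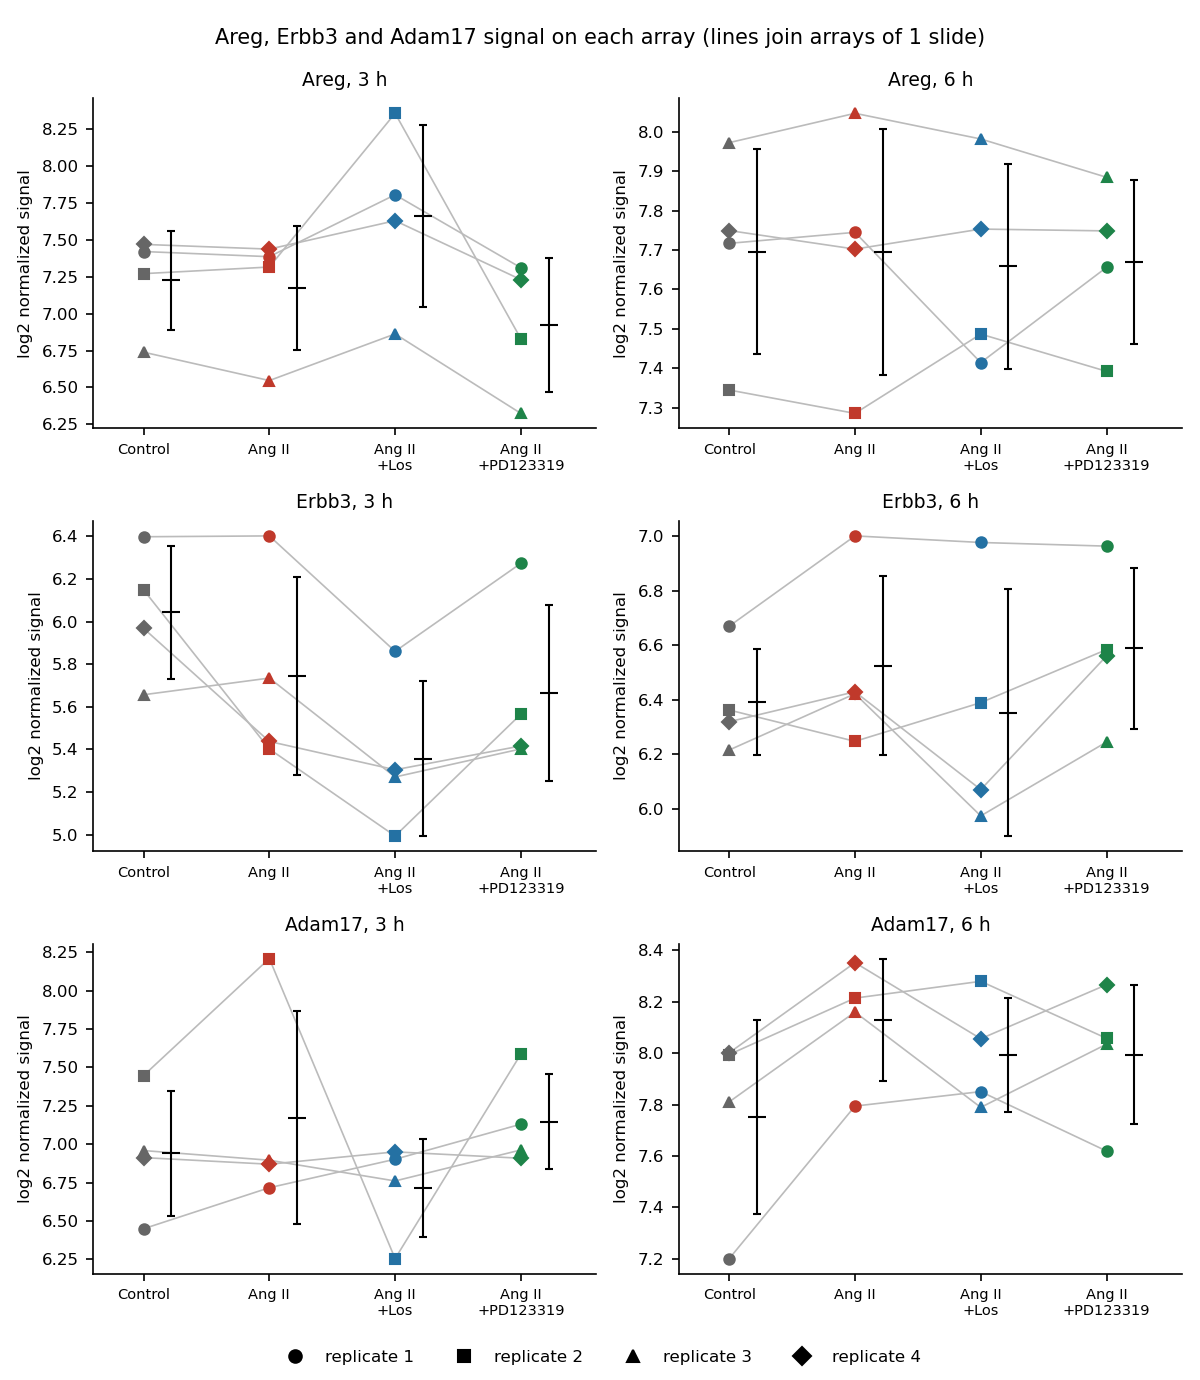
Log2 normalized signal of Areg, Erbb3 and Adam17 (y axes) on each array by group (x axes), at 3 h (left) and 6 h (right), where lines join the 4 arrays of a slide and the bars are the mean and SD of 4 arrays. Areg peaks in Ang II+Los at 3 h and is flat at 6 h, Erbb3 is lowest in Ang II+Los on each slide at 3 h, and Adam17 is higher with Ang II than in Control on each slide at 6 h.

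Tgfa and Nrg1 passed in no comparison. Tgfa, transforming growth factor alpha, had log2 signals of 5.35 to 7.02 at 3 h and 6.69 to 7.46 at 6 h, and its largest differences were 0.18 in the Losartan contrast at 3 h (SE 0.14, interval -0.11 to 0.48) and 0.18 in the PD123319 contrast at 6 h (SE 0.09, interval -0.0043 to 0.37). The latter is the mean of 2 probes that ran opposite ways. There the second probe was 0.49 higher (limma adjusted p = 0.554) and the first -0.12, and in the Ang II contrast at 3 h the second was -0.39 (limma adjusted p = 0.379) and the first 0.13, so no direction is given for Tgfa. Nrg1 at 6 h ranged from 3.27 to 5.54 over the arrays. Its differences were -0.10, -0.11 and -0.28 in the Ang II contrast, the Losartan contrast and the PD123319 contrast (SE 0.20 each). Without replicate 1 the last of these was -0.46 and passed.

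Of the receptors, Erbb2, the partner without a ligand, passed in no comparison. Its mean log2 signal was 8.53 to 8.61 in the groups at 3 h and 8.41 to 8.52 at 6 h, and none of its 6 log2 fold changes was beyond -0.06 on the lower side or 0.11 on the higher side, with SEs of 0.10 at 3 h and 0.06 at 6 h. The 95% intervals reached from -0.28 to 0.30 at 3 h and from -0.13 to 0.24 at 6 h. Erbb3, which binds neuregulins and has little kinase activity of its own, gave 6.40, 6.15, 5.66 and 5.97 in Control at 3 h, 6.40, 5.40, 5.73 and 5.44 with Ang II, and 6.27, 5.57, 5.40 and 5.42 with Ang II+PD123319. With Ang II+Los it gave 5.86, 4.99, 5.27 and 5.30, the lowest array of each slide. In the Losartan contrast at 3 h it was lower by -0.39 (SE 0.14, 0.765-fold, interval -0.69 to -0.08, limma adjusted p = 0.427) and passed, on 4 of 4 slides by -0.54, -0.41, -0.46 and -0.13. Without the array that stood apart it was -0.30 (SE 0.14), and without replicate 1 or replicate 3 it was -0.34 or -0.36, and in none of these 3 did it pass. In the Ang II contrast at 3 h Erbb3 was at -0.30 (SE 0.14, interval -0.60 to 0.01), with slide differences of 0.00, -0.75, 0.08 and -0.53. At 6 h the means were 6.39 in Control, 6.53 with Ang II, 6.35 with Ang II+Los and 6.59 with Ang II+PD123319, and no difference passed. The Ang II contrast was higher at 6 h than at 3 h by 0.43 (SE 0.18, limma adjusted p = 0.667).

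Adam17, the metalloprotease that sheds Hbegf, Areg, Tgfa and the other ligands cut by it, gave 7.20, 7.99, 7.81 and 8.001 in Control at 6 h and 7.79, 8.21, 8.16 and 8.35 with Ang II. It was higher with Ang II on 4 of 4 slides, by 0.59, 0.22, 0.35 and 0.35, although the groups overlapped. The log2 fold change was 0.38 (SE 0.10, 1.30-fold, interval 0.16 to 0.60, limma adjusted p = 0.105), and it passed whichever slide was left out. In the antagonist groups at 6 h the values were 7.85, 8.28, 7.79 and 8.06 for Ang II+Los and 7.62, 8.06, 8.03 and 8.27 for Ang II+PD123319, and both differences from Ang II were -0.14 (SE 0.10). The PD123319 difference had the same sign on 4 of 4 slides, from -0.17 to -0.09. At 3 h Adam17 was at 6.45 to 7.45 in Control and passed nowhere. There the Ang II array of replicate 2 stood at 8.21 above the other Ang II arrays at 6.72 to 6.90, and its slide gave -1.96 in the Losartan contrast, where the mean was -0.46 (SE 0.28).

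Counted together, 0 of 6 genes tested passed in the Ang II contrast at 3 h, where 11.0% of all genes tested did, and 2 of 7 at 6 h, Hbegf and Adam17, both higher, where 11.5% did. In the Losartan contrast, 3 of 6 passed at 3 h (Areg higher, Hbegf and Erbb3 lower) beside 10.1% of all genes, and 0 of 7 at 6 h beside 0.900%. In the PD123319 contrast, 1 of 6 passed at 3 h beside 2.64% of all genes and 1 of 7 at 6 h beside 3.79%, which was Hbegf, lower, each time. With so few genes these counts cannot be set apart from the background. The medians over the genes tested ran from -0.15 to 0.01 in the 6 comparisons, and those over all genes from -0.02 to 0.00. Without the array that stood apart, 1 of 6 passed in the Losartan contrast at 3 h, which was Areg, beside 1.38% of all genes. When the slide was left out of the fit, no gene of the family passed in any comparison (for Hbegf at 6 h in the Ang II contrast, 0.45 with an SE of 0.54), since the spread between slides then entered the error. Over all genes, 0.213% to 3.21% passed in the 6 comparisons of that fit. With the normexp background, Adam17 at 6 h (0.23) and, in the Losartan contrast at 3 h, Erbb3 (-0.13) and Hbegf (-0.18) did not pass, and the methods' paired test kept Adam17 and Erbb3 there and Hbegf with PD123319 at 6 h.

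**Figure D4:**
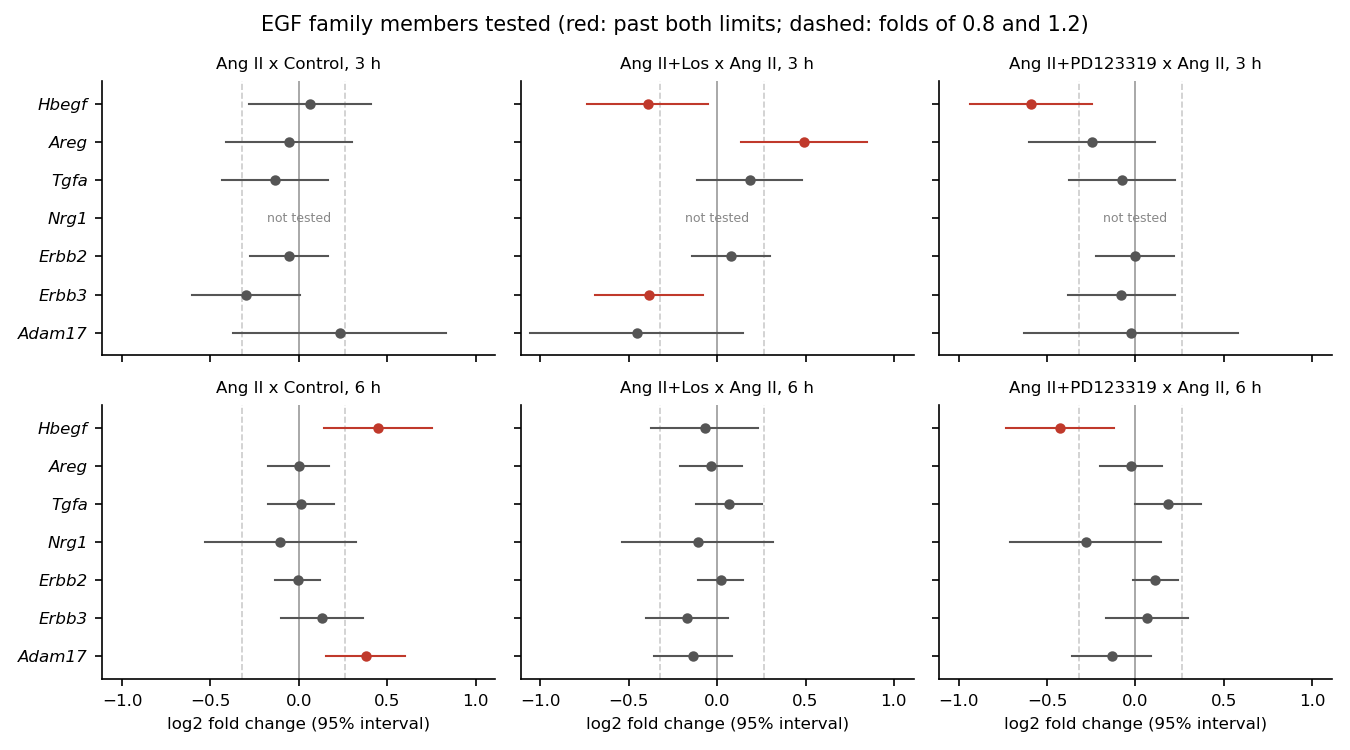
Log2 fold change (x axis) with its 95% interval for the 7 genes tested (rows), in the 3 comparisons (columns) at 3 h (top) and 6 h (bottom), each headed by its first and second group, with red for genes past both limits and dashed lines at folds of 0.8 and 1.2. The red points are Areg, Hbegf and Erbb3 in the Losartan contrast at 3 h, Hbegf in the PD123319 contrast at both times, and Hbegf and Adam17 in the Ang II contrast at 6 h.

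Other proteins of shedding were read from 13 genes, namely further metalloproteases, the iRhoms and the inhibitors of metalloproteases, of which 9 were tested at 3 h and 11 at 6 h. In the Ang II contrast at 6 h, 2 of 11 passed beside 11.5% of all genes, both higher: Mmp2, gelatinase A, by 0.60 (SE 0.18, adjusted p = 0.119) and Adam9 by 0.45 (SE 0.18, adjusted p = 0.190), each on 3 of 4 slides. None passed in the Ang II contrast at 3 h, where the median was -0.09 and 11.0% of all genes passed. In the Losartan contrast at 3 h, 1 of 9 passed beside 10.1% of all genes. This was Timp2, an inhibitor of metalloproteases, at 0.28 (SE 0.12, adjusted p = 0.427) and higher on 4 of 4 slides. At 0.25 (SE 0.13) without the array that stood apart, it did not pass. No gene of this list passed with PD123319 at either time or with Losartan at 6 h.

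Below the receptors, 22 genes were followed, of which 21 were tested at 3 h. They encode kinases, adaptors, Ras proteins, exchange factors of Ras, a phospholipase, a phosphatase and the transcription factor Stat3. The Ang II contrast had 1 of 21 past the limits at 3 h, beside 11.0% of all genes, which was Sos1, the exchange factor of Ras, at 0.45 (SE 0.16, adjusted p = 0.338) and higher on 4 of 4 slides. It had 2 of 22 at 6 h, beside 11.5% of all genes, and these were Ptk2b, the calcium-sensitive kinase Pyk2 that can link AT1 to Egfr, at 0.38 (SE 0.09, adjusted p = 0.0914) and higher on 4 of 4 slides, and Plcg1 at 0.27 (SE 0.09, adjusted p = 0.132). Neither share was above that of all genes. In the Losartan contrast at 3 h, 4 of 21 passed beside 10.1% of all genes, all lower: Akt1 at -0.60 (SE 0.22), Plcg1 at -0.59 (SE 0.25), Map2k1 at -0.42 (SE 0.19) and Pik3r1 at -1.90 (SE 0.84). The slide of replicate 2 gave -1.68, -1.76, -1.41 and -5.45 for these. Without the array that stood apart they were at -0.29, -0.22, -0.18 and -0.63, and 0 of 21 passed beside 1.38% of all genes. None passed in the other 3 comparisons. Of 13 genes that restrain the receptors, 3 of 11 tested passed in the Ang II contrast at 3 h, where 11.0% of all genes did: Cbl and Cblb, ubiquitin ligases that send Egfr to breakdown, were lower by -0.39 (SE 0.17) and -0.38 (SE 0.11), and Ptpn1, a phosphatase of the receptors, was higher by 0.47 (SE 0.17), with adjusted p of 0.322 to 0.379. Cblb moved the same way on 4 of 4 slides, from -0.58 to -0.27. The count fell to 1 without replicate 2 (Cblb) or replicate 4 (Cbl), and to 1 with normexp, without the block and in either test per gene. Of all genes, 1.53% to 6.47% passed in these fits. No restraining gene passed in any of the other 5 comparisons.

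Genes that growth factors are known to induce through MAP kinase gave the largest count. This list, like the others, was chosen with earlier results of these data known, so its counts here and below are a description only. Of 13 listed, 12 were tested at 6 h, and 6 of them passed in the Ang II contrast at 6 h, all higher, where 11.5% of all genes passed. Phlda1, an early target of growth factors, was up by 0.44 (SE 0.10, adjusted p = 0.0826) on 4 of 4 slides. Dusp6, the phosphatase of ERK that ERK signalling induces, was up by 0.37 (SE 0.12) and Ier3 by 0.35 (SE 0.12), each on 4 of 4 slides, and Egr1 by 0.47 (SE 0.15), Plaur, the urokinase receptor, by 0.41 (SE 0.15) and the ETS factor Etv4 by 0.32 (SE 0.13), each on 3 of 4, with adjusted p of 0.134 to 0.181. The median over the 12 genes was 0.31, that over all genes -0.01, and 10 of the 12 were above 0, as were 48.7% of all genes. Leaving out a slide gave 1 to 7 genes past the limits, the fewest without replicate 4, when Phlda1 alone passed, and 2 without replicate 2. The count was 3 without the block, 2 in a fit to the 8 arrays compared, 1 by the methods' paired test (Phlda1) and 0 by the unpaired test. Of all genes, 3.21%, 9.92%, 4.44% and 1.74% passed in these, in that order, and 7.44% to 15.3% with a slide left out. Over the 16 slide-centred arrays of 6 h, which share their slides and groups, Pearson's r with Hbegf was 0.44 for Dusp6, 0.57 for Etv4, 0.61 for Plaur and for Phlda1, 0.70 for Egr1 and 0.73 for Ier3. These 6 had risen in the same contrast as Hbegf, which bears on r. Of the tested genes that had not passed, r was 0.42 for Ccnd1, 0.19 for Spry2, 0.06 for Etv5, -0.07 for Spry4 and -0.14 for Fosl1. For Egr3 no r was taken, since only genes well above background on all 16 arrays were used and Egr3 was so on 14. At 3 h the 11 genes ran from -0.03 for Spry4 and -0.02 for Ier3 to 0.74 for Etv5. At 3 h, 2 of 11 passed in the Ang II contrast, where 11.0% of all genes did. They were Etv4 at 0.62 (SE 0.18, 4 of 4 slides) and Plaur at 0.70 (SE 0.25, 3 of 4 slides), with adjusted p of 0.322 and 0.342.

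**Figure D5:**
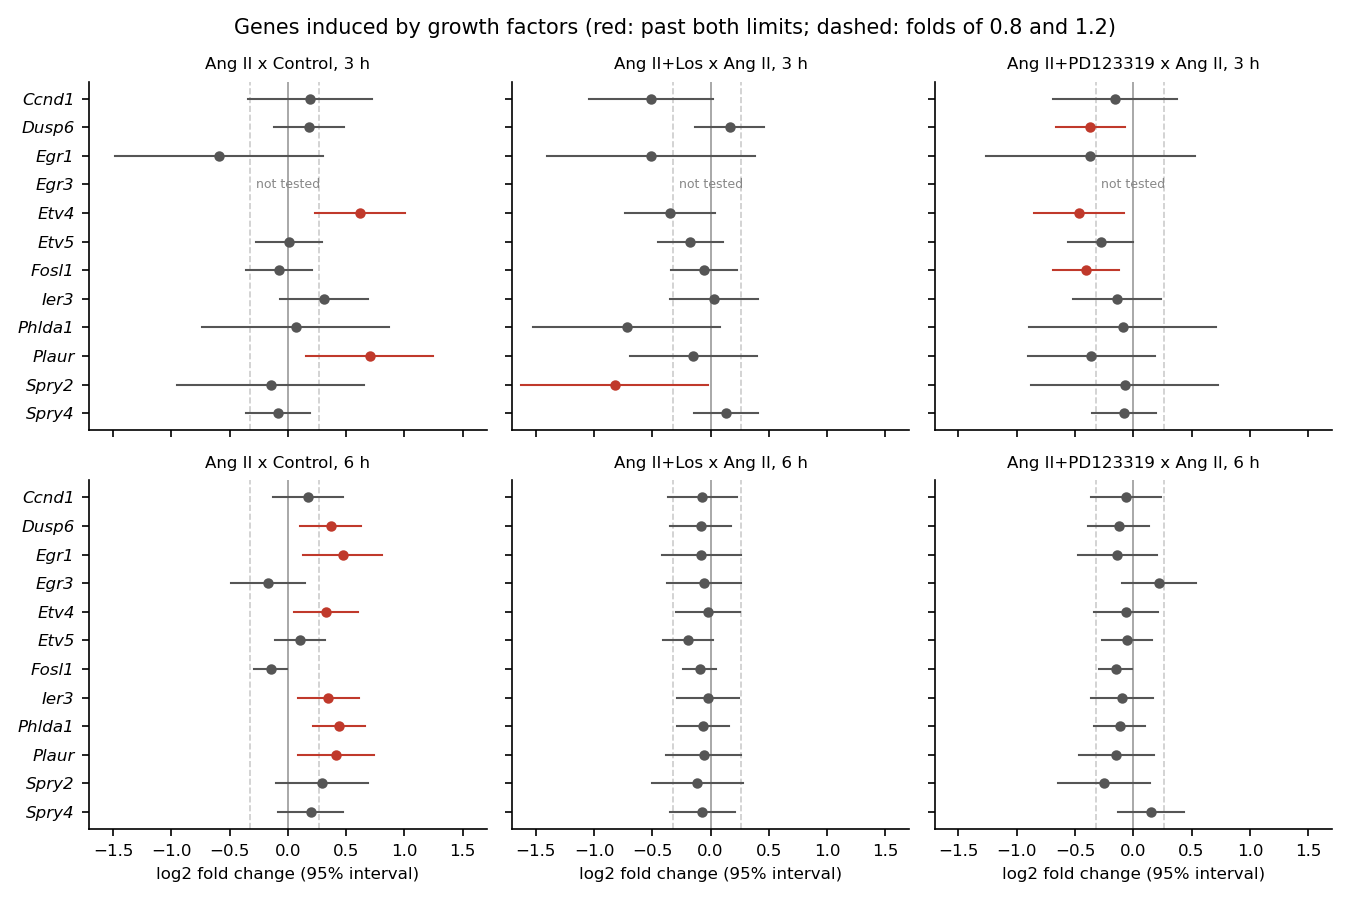
Log2 fold change (x axis) with its 95% interval for 12 genes induced by growth factors (rows), in the 3 comparisons (columns) at 3 h (top) and 6 h (bottom), with red for genes past both limits and dashed lines at folds of 0.8 and 1.2. In the Ang II contrast at 6 h, 6 points are red and right of 0, and in the PD123319 contrast at 3 h all 11 points are left of 0 and 3 are red.

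With PD123319 at 3 h these induced genes were lower than with Ang II alone. In the Ang II contrast of the same time, 7 of 11 were above 0, with a median of 0.07. All 11 tested were below 0 in the PD123319 contrast, where 44.7% of all genes were above 0, with a median of -0.28 against -0.02 over all genes, and 3 passed beside 2.64% of all genes: Etv4 at -0.47 (SE 0.18, 3 of 4 slides), Fosl1, a subunit of AP-1, at -0.41 (SE 0.13, 4 of 4 slides) and Dusp6 at -0.37 (SE 0.14, 4 of 4 slides), each with an adjusted p of 1.00. With the arrays scaled to their 75th percentile, or without replicate 4, Fosl1 alone passed there, and without replicate 3 or by the methods' paired test Dusp6 alone. Without the block, or by the unpaired test, 0 passed. Of all genes, 0.293% to 3.37% passed in these fits of the PD123319 contrast. At 6 h none of 12 passed with PD123319, and the median was -0.11. With Losartan the list had 1 of 11 past the limits at 3 h, beside 10.1% of all genes. This was Spry2, an inhibitor of MAP kinase signalling, at -0.82 (SE 0.37, adjusted p = 0.427), where replicate 2 gave -2.19. Without the array that stood apart Spry2 was at -0.29 and 0 of 11 passed, beside 1.38% of all genes. At 6 h with Losartan 0 of 12 passed and all 12 were below 0, with a median of -0.07. The comparisons share the Ang II arrays of their time, so a high Ang II array raises one difference and lowers the others.

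The genes most like Hbegf over the 16 slide-centred arrays of a time, among those with a symbol and well above background on all of them, were Alkbh8 (r = 0.86), Duoxa1 (0.86), Frmd6 (0.85), Foxk2 (0.85) and MGC116202 (0.84) of 7831 at 3 h. At 6 h they were Bend6 (0.95), MGC94282 (0.93), Wdr55 (0.93), Kpna6 (0.92) and Zfyve9 (0.92) of 9551. The rest of the EGF family was not near the top of either list: Adam17 had r of 0.43 at 3 h and 0.38 at 6 h, Erbb3 0.38 and -0.19, Areg 0.06 and -0.05, Tgfa 0.02 and -0.48, Erbb2 -0.10 and -0.32, and Nrg1 0.26 at 6 h.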

How the data were processed

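C6 cells in 8 groups of 4 samples were measured on 32 single-dye Agilent rat arrays. Per the file headers, Feature Extraction 9.5.3.1 measured the intensity of each spot and subtracted the background. The authors deposited the log2 of that processed intensity without scaling between arrays, equal to the scanner value within 1e-06 in 100% of 561803 values, with 38.2% blank. The labels give 0.5 µg of RNA for labelling.

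Scanner intensities were used here. Spots with an outlier flag were dropped, signals not significant at 3 h took the software's error of the signal, spots of a probe were averaged, and the log2 values of the 16 arrays of a time were normalized by cyclic loess (span 0.7, 3 iterations), so levels are not compared between the times. Probes with at most 2 gaps that were well above background (in at least 0.5 of their spots) on all 4 arrays of at least 1 group were kept and averaged per gene, leaving 13630 genes at 3 h and 16446 at 6 h. The comparisons were fitted in R 4.3.3 by limma 3.58.1 (tables were read with the data.table package, version 1.17.8) on all 16 arrays with the replicate number as a block. The number pairs the arrays: deviations from the group means of same-numbered arrays correlated at 0.147 to 0.916 at 3 h and 0.551 to 0.826 at 6 h, and each number is 1 slide, per the file headers. The test named in the study's methods is the t-test, paired according to the series record. Precision is limited by how many arrays there are, and the SE of a difference had a median of 0.16 at 3 h and 0.10 at 6 h. On an array, 49.1% to 59.1% of probes were well above background at 3 h and 59.0% to 77.1% at 6 h, under different extraction protocols. No pair of arrays was a duplicate, at correlations of at most 0.994.

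The genes described and the lists of related genes were chosen with earlier results of these data known. Named from the lists are the genes past both limits with the same direction on all 4 slides, up to 4 a list and comparison, and the others past the limits were named after their values were seen. Simulated arrays in which 200 genes were changed were used to test the fit: in the Ang II contrast, over 13400 genes at 3 h and 16380 at 6 h, 73.0% and 90.5% of changes of 0.5 on the log2 scale were recovered at the limits, as were 97.5% and 99.5% of changes of 1. Of the unchanged genes, 4.24% at 3 h and 2.15% at 6 h passed in the simulation with changes of 0.5. The simulated noise was drawn for each gene separately, with no deviation shared by the genes of an array. The real arrays had such deviations, so these rates cannot be set beside the shares of genes that passed in them. The alternatives were no block, the methods' paired test and an unpaired test per gene, the deposited values, single probes, no filter or one asking for every array, normexp (offset 50), quantile normalization, 75th percentile scaling, a fit to only the 8 arrays compared, each slide left out and, chosen after seeing the data, the array of Ang II+Los replicate 2 at 3 h left out. Promoter sequences and gene models were not used here. Figures were drawn with matplotlib 3.10.9 in Python 3.11.15.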

Additional observations from a re-analysis of the deposited data

Results flagged for a closer look

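Of 52 groups of 4 arrays over the 7 genes tested, 4 had an array far from the other 3 by Dixon's test, where chance gives about 1 in 20. At 3 h Areg stood at 6.55 on the Ang II array of replicate 3, against 7.32 to 7.44 on the others, and Adam17 at 8.21 on the Ang II array of replicate 2, against 6.72 to 6.90. Erbb2 stood at 7.998 on the Ang II+PD123319 array of replicate 1 at 3 h, against 8.67 to 8.78, and Tgfa at 6.84 on that of replicate 1 at 6 h, against 7.27 to 7.33. The slides of Areg, Erbb2 and Tgfa were low in the other groups as well. Areg was at 6.32 to 6.86 on all 4 arrays of replicate 3 and Erbb2 at 7.998 to 8.30 on all 4 of replicate 1. Tgfa at 6 h was at 6.69 to 6.84 on all 4 of replicate 1.

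Among 18 tests of a difference between the times, 2 had an unadjusted limma p under 0.05. In these tests time cannot be told apart from slide, scan and extraction protocol. The Ang II contrast of Erbb3 was higher at 6 h by 0.43 (SE 0.18, limma adjusted p = 0.667), at -0.30 at 3 h and 0.13 at 6 h. The Losartan contrast of Areg was lower at 6 h by -0.53 (SE 0.18, limma adjusted p = 0.704), at 0.49 and -0.04. Over all 13617 genes, 7.19% and 5.02% had an unadjusted p under 0.05 in these 2 tests, and none had an adjusted p under 0.05 by limma.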

How the results depend on the processing

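The counts of EGF family genes past the limits depended on the block. Without the replicate block, as in an unpaired test per gene, 0 passed in each comparison, in place of 2 in the Ang II contrast at 6 h, 3 in the Losartan contrast at 3 h and 1 at each time in the PD123319 contrast. The methods' paired test gave 1, 1, 0 and 1 in that order, beside 4.44%, 0.998%, 1.09% and 1.75% of all genes. Over all genes, 0.213% to 3.21% passed without the block and 0.225% to 1.74% in the unpaired test. Scaling to the 75th percentile (Erbb3) and testing each probe (Tgfa) gave 1 in place of 0 in the Ang II contrast at 3 h. With the scaling, 11.8% of all genes passed there. With each probe tested, 1626 genes passed there, of 15331 probes. The deposited values and normexp gave 1 (Hbegf) in the Ang II contrast at 6 h, normexp gave 1 (Areg) in the Losartan contrast at 3 h, no filter gave 2 (with Nrg1) in the PD123319 contrast at 3 h, and the deposited values and each probe gave 2 (with Tgfa) there at 6 h. Beside these, the deposited values had 11.3% of all genes past the limits in the Ang II contrast at 6 h and 3.52% in the PD123319 contrast at 6 h. Normexp had 4.6% in the Ang II contrast at 6 h and 7.32% in the Losartan contrast at 3 h. No filter had 3.15% in the PD123319 contrast at 3 h. With each probe tested, 684 genes passed in the PD123319 contrast at 6 h, of 18622 probes. With 1 slide left out, or the array of Ang II+Los replicate 2, the counts ran from 0 to 1 in the Ang II contrast at 3 h and 1 to 2 at 6 h. They ran from 1 to 2 in the Losartan contrast at 3 h. In the PD123319 contrast they ran from 0 to 2 at 6 h, and at 3 h the count stayed 1. The share of all genes also moved in these fits. It ran from 5.53% to 14.3% and from 7.44% to 15.3% in the Ang II contrast at 3 h and 6 h. In the Losartan contrast at 3 h it ran from 1.38% to 13.4%. In the PD123319 contrast it ran from 0.293% to 5.3% at 3 h and from 2.03% to 6.32% at 6 h.

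No gene that passed changed its sign under any alternative. Genes that did not pass did so in 35 cases, none past the limits. In the Ang II contrast these were Erbb2 at 3 h (0.037 by the second probe, 0.0076 with normexp) and at 6 h (0.11 by the third probe, 0.14 without filter, 0.0011 with quantile normalization), Areg at 6 h (0.00066 with 75th percentile scaling, 0.0050 with quantile normalization), and Tgfa at 3 h (0.13 by its first probe) and 6 h (-0.039 in the deposited values, -0.023 by its second probe, -0.051 with normexp). In the antagonist comparisons they were Erbb2 with Losartan at 3 h (-0.11 without filter) and 6 h (-0.015 by its second probe, -0.0020 with normexp) and with PD123319 at 3 h (0.0042 in the deposited values, 0.070 by the third probe), and Tgfa with PD123319 (0.27 by its second probe at 3 h, -0.12 by its first at 6 h). With 1 slide left out, the sign also changed in the Ang II contrast for Hbegf (-0.0085 to 0.15) and Erbb2 (-0.10 to 0.0096) at 3 h, and for Areg (-0.026 to 0.018), Erbb2 (-0.048 to 0.021), Nrg1 (-0.23 to 0.051) and Tgfa (-0.036 to 0.061) at 6 h. It changed with Losartan for Adam17 at 3 h (-0.67 to 0.044) and for Areg (-0.12 to 0.062) and Erbb2 (-0.0033 to 0.065) at 6 h, and with PD123319 for Adam17 (-0.17 to 0.17), Erbb2 (-0.053 to 0.063) and Erbb3 (-0.16 to 0.0046) at 3 h and for Areg (-0.068 to 0.021) and Erbb3 (-0.028 to 0.14) at 6 h. The cause of these changes was not tested.

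Over all genes, the alternatives moved the counts past the limits from 1503 to between 209 and 2000 (the Ang II contrast, 3 h), from 1885 to between 286 and 2512 (6 h), from 1374 to between 96 and 1831 (the Losartan contrast, 3 h), from 148 to between 18 and 482 (6 h), from 360 to between 40 and 837 (the PD123319 contrast, 3 h) and from 624 to between 84 and 1277 (6 h). In the Ang II contrast at 6 h, 328 genes had an adjusted p under 0.05 by limma without replicate 3, 69 with the stricter filter and 47 in the deposited values, and no gene of the EGF family was among them. The deposited values could not be fitted for Adam17, whose probe has blanks at both times. The dim probes of Egfr, Ereg, Btc and Nrg1 at 3 h have a bound only.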
